A study of Mus musculus with 8 samples.

Results

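The genes that build ribosomes, together with 4 subunits of RNA polymerase I, were compared between attached and detached Neuro2a cells. The list held 43 genes chosen by function, and 41 of them were measured by at least 1 transcript cluster (the probes for 1 transcript) that carried the gene's symbol alone. Noc2l had no such cluster and the only cluster of Ppan carried several symbols, so neither was analysed here. Where a gene had more than 1 cluster, the cluster with the highest mean signal over the 8 arrays was used. The table held 35556 clusters in all, of which 21789 named a single gene, for 19938 genes.

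Neuro2a is a mouse neuroblastoma cell line from strain AJ. Anchorage dependent (AD) cells grew attached in DMEM with fetal bovine serum, and anchorage independent (AI) cells grew as floating tumorspheres in neural stem cell medium to which heparin and the growth factors EGF and bFGF were added. Total RNA of AD and AI cells was hybridized to Affymetrix mouse gene arrays, 4 arrays for each phenotype. The series design describes independent cultures, and the methods describe replicate hybridizations, so that p-values below may cover technical spread only. Every value below is a log2 signal or a log2 ratio of AD over AI cells. Attachment and medium changed together between the phenotypes, so that their shares in any difference cannot be told apart. The array medians lay between 5.82 and 5.92 in AD cells and between 5.92 and 5.99 in AI cells, and arrays give no read depth. Of 10 measured sympathetic neuroblast markers none was below the array medians, whereas 4 of 5 fibroblast, 4 of 4 leukocyte, 3 of 4 endothelial and 1 of 3 Schwann cell markers were below them. Markers also differed between the phenotypes. Of the neuroblast markers 6 were higher in AD cells, the largest being Dbh (dopamine beta-hydroxylase) at a log2 ratio of 3.01 and Phox2a at 1.13, and 1, Chgb, was lower at -0.49. The Schwann cell marker Erbb3 was lower at -0.52 (adjusted p = 0.0017). The part of these differences in the results below was not tested.

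Ribosomes are assembled in the nucleolus, where RNA polymerase I transcribes a long precursor of the ribosomal RNAs. Small nucleolar ribonucleoproteins (snoRNPs) modify that precursor, and large sets of assembly factors cut and fold it into the small and the large subunit. Ribosome biogenesis genes are well-known targets of the Myc family of transcription factors, to which the neuroblastoma oncogene Mycn belongs.

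Of the 41 measured ribosome biogenesis genes, 17 were higher in AD cells at an adjusted p under 0.05, 0 were lower and 24 did not pass. Of all clusters 8.5% were higher and 9.62% lower by the same rule, and of the 8467 genes with a signal at least as high as the dimmest listed gene 19% were higher. The median log2 ratio over the 41 genes was 0.24, beside 0.01 over all genes and 0.03 over those 8467 genes. The log2 ratios were positive for 38 genes and negative for 3, and ran between -0.07 and 0.48. No gene reached the 1.5-fold change used in the series design, at which 1.39% of all clusters were higher in AD cells. Among the 17 genes that passed, the fold ranged between 1.18 and 1.40 with a standard error of 0.060 to 0.12 on the log2 scale. In bulk RNA, fewer cells of a kind and less of a transcript per cell cannot be told apart. The count depended on single arrays, being 29 without AD replicate 4 and 6 to 9 without any 1 of AD replicates 1, 2 and 3 or AI replicates 1, 3 and 4. The share of all clusters that were higher moved in the same direction, to 12% without AD replicate 4 and to 5.31% to 6.68% without those other arrays. Of the 8467 genes 26.6% were higher without AD replicate 4, and 12.3% to 14.7% without those other arrays. The lowest count, 6 of the 41 genes without AI replicate 3, was near the share of the 8467 genes there (12.3%).

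**Figure D1:**
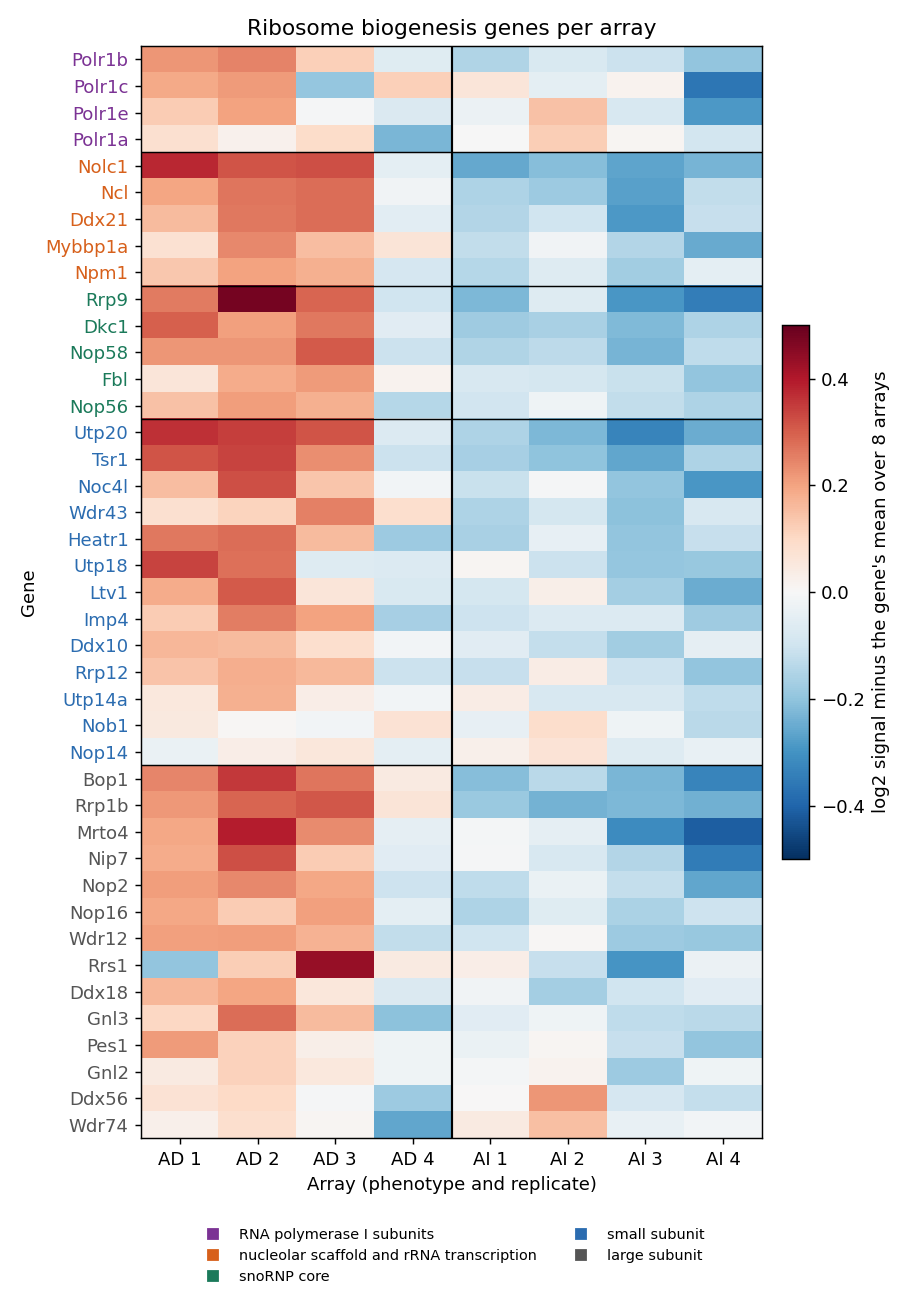
Log2 signal of each of the 41 genes (rows, coloured by role) on each array (columns, AD left and AI right), minus that gene's mean over the 8 arrays. AD replicates 1 to 3 are red over most rows, AD replicate 4 is paler, and the 4 AI arrays are mostly blue.

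The separation of the arrays was counted gene by gene. For 15 of the 41 genes every AD array was above every AI array, beside 10.6% of all clusters and 21.9% of the genes at least as bright as the dimmest listed one. Of the 17 genes that passed, 14 were separated in this way, and Rrp9, Noc4l and Mrto4 overlapped. For the 24 genes that did not pass, the upper limit of the 95% confidence interval reached at most 0.51, which is below 1.5-fold (0.585). Among the 17 that passed, the upper limit was above 1.5-fold for 7 genes and reached 0.73.

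**Figure D2:**
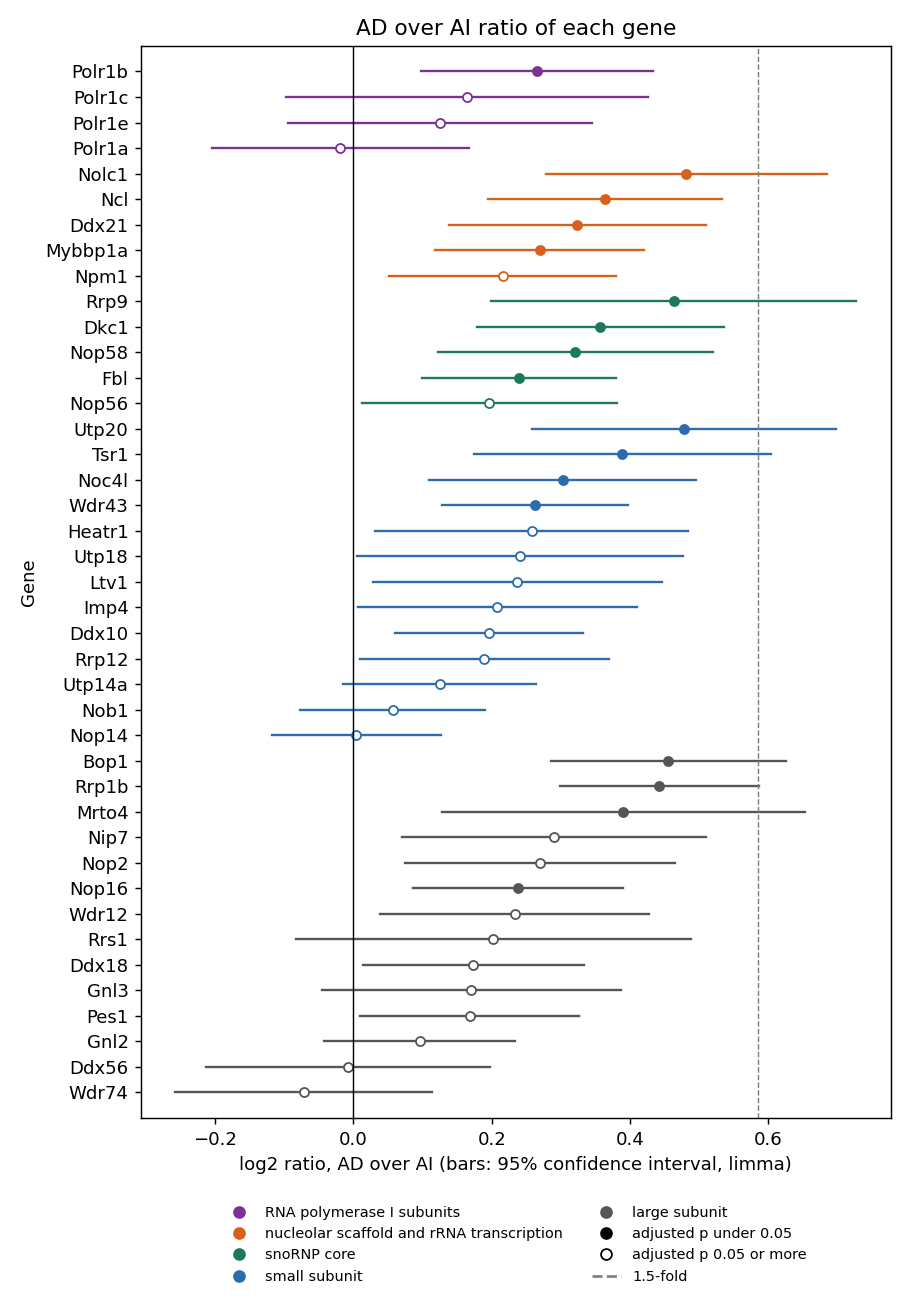
Log2 ratio of AD over AI cells for each gene with its 95% confidence interval from limma, grouped by role; filled points have an adjusted p under 0.05. The filled points lie between 0.24 and 0.48, and every point is left of the dashed 1.5-fold line.

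Among the RNA polymerase I subunits, Polr1b rose and the other 3 did not pass. Polr1b, which forms the catalytic core with Polr1a, read 10.59, 10.61, 10.49 and 10.31 in AD cells, against 10.22, 10.29, 10.26 and 10.17 in AI cells. Its arrays did not overlap, and the log2 ratio was 0.27 ± 0.074 (SE, n = 4 each; adjusted p = 0.0369, limma). Polr1a, the largest subunit, read 9.32, 9.26, 9.33 and 9.01 in AD cells and 9.24, 9.36, 9.25 and 9.15 in AI cells. The phenotypes overlapped throughout, with a log2 ratio of -0.02 and an interval of -0.20 to 0.17. Polr1c, a subunit shared with RNA polymerase III, read 10.07, 10.09, 9.69 and 10.00 in AD cells and 9.94, 9.83, 9.90 and 9.52 in AI cells. A single array of each phenotype, AD replicate 3 and AI replicate 4, lay below the rest, and the log2 ratio was 0.16 (adjusted p = 0.397). Polr1e, an accessory subunit, read 7.74, 7.82, 7.61 and 7.54 in AD cells and 7.59, 7.76, 7.54 and 7.33 in AI cells, with a log2 ratio of 0.13 (adjusted p = 0.448). The median of the 4 ratios was 0.14.

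Nucleolar scaffold proteins and factors of ribosomal RNA transcription passed in 4 of 5 cases, with a median log2 ratio of 0.32. Nolc1, a nucleolar chaperone of snoRNPs, read 9.38, 9.32, 9.33 and 8.96 in AD cells, against 8.75, 8.79, 8.74 and 8.78 in AI cells. The AI arrays were tightly grouped, AD replicate 4 was the lowest AD array, and the groups did not overlap. The log2 ratio of Nolc1 was 0.48 ± 0.090 (SE; adjusted p = 0.00607), the largest of the 41 genes. Ncl, which encodes nucleolin, an abundant protein that binds the precursor RNA, read 11.18, 11.25, 11.26 and 10.96 in AD cells, against 10.83, 10.80, 10.71 and 10.86 in AI cells. All AD arrays were above all AI arrays, with a log2 ratio of 0.36 ± 0.075 (SE; adjusted p = 0.00946). Ddx21, an RNA helicase of ribosomal RNA transcription and processing, read 10.75, 10.85, 10.87 and 10.54 in AD cells, against 10.45, 10.49, 10.30 and 10.47 in AI cells. Its groups were also apart, and the log2 ratio was 0.32 ± 0.083 (SE; adjusted p = 0.0249). Mybbp1a, a nucleolar protein that binds Myb, had a log2 ratio of 0.27 (adjusted p = 0.0223). Npm1, which encodes nucleophosmin, had 0.22 (adjusted p = 0.0724) and did not pass.

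The core proteins of the snoRNPs likewise passed in 4 of 5 cases, with a median log2 ratio of 0.32. Rrp9, a protein of the U3 snoRNP, read 8.59, 8.81, 8.62 and 8.23 in AD cells, against 8.11, 8.26, 8.04 and 7.99 in AI cells. AD replicate 4 was just under AI replicate 2, so that the groups overlapped, and the log2 ratio was 0.46 ± 0.12 (SE; adjusted p = 0.0239). Dkc1, the pseudouridine synthase of the box H/ACA snoRNPs, read 10.04, 9.95, 10.01 and 9.69 in AD cells, against 9.56, 9.58, 9.52 and 9.59 in AI cells. Its groups did not overlap, and the log2 ratio was 0.36 ± 0.079 (SE; adjusted p = 0.0132). The box C/D proteins Nop58 and Fbl (fibrillarin, the methyltransferase) had log2 ratios of 0.32 (adjusted p = 0.0335) and 0.24 (adjusted p = 0.0265). Their partner Nop56 had 0.20 (adjusted p = 0.14) and did not pass.

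Of the 13 small subunit factors, 4 were higher in AD cells and 9 did not pass, with a median log2 ratio of 0.24. Utp20, a very large scaffold protein of the small subunit processome, read 8.85, 8.83, 8.80 and 8.42 in AD cells, against 8.33, 8.26, 8.16 and 8.24 in AI cells. AD replicate 4 stood below the other AD arrays and above every AI array, and the log2 ratio was 0.48 ± 0.098 (SE; adjusted p = 0.00912). Tsr1, which acts late in small subunit assembly, read 9.41, 9.43, 9.33 and 8.99 in AD cells, against 8.93, 8.89, 8.83 and 8.94 in AI cells. The groups were separated by the narrow gap between AD replicate 4 and AI replicate 4, and the log2 ratio was 0.39 ± 0.095 (SE; adjusted p = 0.0211). Noc4l and Wdr43 also passed, at 0.30 (adjusted p = 0.0381) and 0.26 (adjusted p = 0.0149). Nop14, which in yeast binds the counterpart of Noc4l, read 9.16, 9.22, 9.25 and 9.14 in AD cells and 9.21, 9.26, 9.12 and 9.15 in AI cells. Its ratio was 0.00 with an interval of -0.12 to 0.13, the closest to 0 of the 41 genes. The other 8 factors, Heatr1, Utp18, Ltv1, Imp4, Ddx10, Rrp12, Utp14a and Nob1, had log2 ratios between 0.06 and 0.26, and of these only Ddx10 had every AD array above every AI array (adjusted p = 0.0528).

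Of the 14 measured large subunit factors (16 listed), 4 were higher in AD cells and 10 did not pass, with a median log2 ratio of 0.22. Bop1, a member of the complex of Pes1, Bop1 and Wdr12, read 9.96, 10.07, 9.98 and 9.76 in AD cells, against 9.50, 9.58, 9.48 and 9.38 in AI cells. The AD arrays were all higher, with a log2 ratio of 0.46 ± 0.076 (SE; adjusted p = 0.00333). Its partner Pes1 did not pass, with a log2 ratio of 0.17 (adjusted p = 0.141). For Wdr12, the other partner, the call depended on the cluster. The brighter cluster gave 0.23 (adjusted p = 0.0982), and the dimmer one, among clusters of the gene's own chromosome, passed at 0.44 (adjusted p = 0.0107). Rrp1b, a nucleolar protein related to the yeast factor Rrp1, read 9.03, 9.10, 9.12 and 8.88 in AD cells, against 8.63, 8.57, 8.59 and 8.57 in AI cells. The gap between the groups was wide beside the spread of the AI arrays, and the log2 ratio was 0.44 ± 0.064 (SE; adjusted p = 0.00164, the lowest of the 41 genes). Mrto4, whose yeast counterpart holds the place of the stalk protein P0 on the early large subunit, read 9.60, 9.80, 9.65 and 9.37 in AD cells, against 9.40, 9.36, 9.10 and 9.00 in AI cells. AD replicate 4 lay within the AI range, and the log2 ratio was 0.39 ± 0.12 (SE; adjusted p = 0.0464). Nop16 passed at 0.24 (adjusted p = 0.0375). Ddx56, a nucleolar helicase, read 10.22, 10.25, 10.14 and 9.96 in AD cells and 10.15, 10.37, 10.06 and 10.03 in AI cells. The highest array was AI replicate 2, and the log2 ratio was -0.01 with an interval of -0.21 to 0.20. The other factors that did not pass, Nip7, Nop2, Rrs1, Ddx18, Gnl3, Gnl2 and Wdr74, had log2 ratios between -0.07 and 0.29.

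A second cluster existed for 4 of the genes, and for 3 of them the brighter cluster did not sit among clusters of the gene's own chromosome. No cluster coordinates were used here, so the chromosome was read from the 20 clusters with the nearest identifiers. The brighter Wdr12 cluster lay among chromosome 7 genes (18 of 20), whereas the gene is on chromosome 1. The dimmer Wdr12 cluster, among chromosome 1 genes (19 of 20), read 7.91, 7.95, 7.94 and 7.59 in AD cells, against 7.47, 7.40, 7.50 and 7.23 in AI cells. These groups did not overlap, and its log2 ratio of 0.44 (adjusted p = 0.0107) passed where that of the brighter cluster did not. For Mrto4, on chromosome 4, the ratio was 0.39 in the brighter cluster, among chromosome 12 genes, and 0.38 in the dimmer one, among chromosome 4 genes. For Ddx18, on chromosome 1, the ratio was 0.17 (adjusted p = 0.134) in the brighter cluster, among chromosome 6 genes, and 0.03 (adjusted p = 0.798) in the dimmer one, among chromosome 1 genes. Both Fbl clusters passed, at 0.24 for the brighter one among chromosome 7 genes, where Fbl lies, and 0.31 for the dimmer one among chromosome 17 genes. With the clusters at the genes' own chromosomes, 18 of the 41 genes were higher in AD cells. Signals of these 4 genes may include related copies, and which copy each probe set read was not tested.

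**Figure D3:**
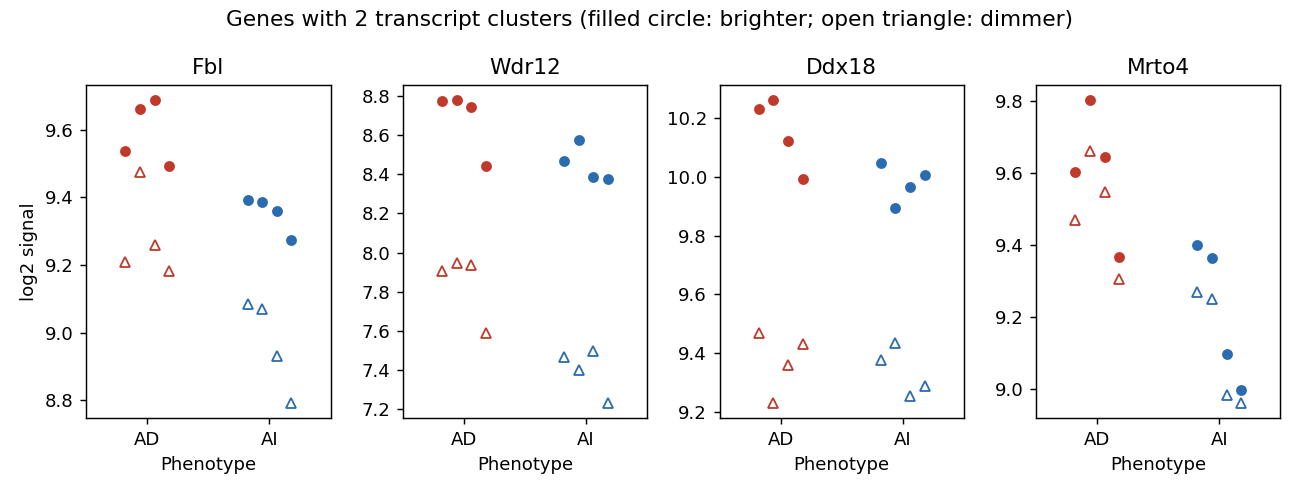
Log2 signals of both clusters of Fbl, Wdr12, Ddx18 and Mrto4 on the 4 AD (red, left) and 4 AI (blue, right) arrays; filled circles are the brighter cluster and open triangles the dimmer one. The triangles of Wdr12 and Mrto4 separate the phenotypes, and those of Ddx18 overlap.

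Proteins of the Myc family bind the palindromic hexamer CACGTG, so the starts of the listed genes were searched for these letters, which read the same on both strands. RefSeq promoters (assembly GRCm38.p6, 250 bases before and 50 after each gene's start) were found for 37 of the 43 genes, and 9 of them (24.3%) held the hexamer. Of all 27025 genes with a promoter, 8.09% did. The 9 genes were Utp20, Tsr1, Nop2, Mybbp1a, Wdr43, Utp18, Ltv1, Imp4 and Pes1. The bases around each hexamer are shown 5′ to 3′ on the gene's strand, with the hexamer in capitals, since they are the sequences on which this count rests.
Utp20, chr10:88826765-88826794, minus strand: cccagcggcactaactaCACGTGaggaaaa
Tsr1, chr11:74898092-74898121, plus strand: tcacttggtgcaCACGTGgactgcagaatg
Nop2, chr6:125131811-125131840, plus strand: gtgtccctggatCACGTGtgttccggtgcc
Mybbp1a, chr11:72441347-72441376, plus strand: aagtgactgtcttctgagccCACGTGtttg
Wdr43, chr17:71616220-71616249, plus strand: cgcccgggcgaaCACGTGgctgccgcggag
Utp18, chr11:93885769-93885798, minus strand: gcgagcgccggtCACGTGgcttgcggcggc
Ltv1, chr10:13193092-13193121, minus strand: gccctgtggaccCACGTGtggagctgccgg
Imp4, chr1:34439696-34439725, plus strand: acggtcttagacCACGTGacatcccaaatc
Pes1, chr11:3963965-3963994, plus strand: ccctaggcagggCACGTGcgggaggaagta

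The hexamer began 3 to 41 bases after the start in 6 of the 9 genes (Pes1, Wdr43, Tsr1, Ltv1, Utp20 and Mybbp1a) and 20, 60 and 121 bases before it in Utp18, Nop2 and Imp4. Among all 2349 promoters with the hexamer, the first one lay after the start in 13.2%. Of the 35 measured genes with a promoter, the 9 with the hexamer had a median log2 ratio of 0.26 and 4 of them were higher in AD cells, whereas the 26 without it had a median of 0.24 and 11 were higher. The medians with and without the letters were thus close, and their difference was not tested. A match of letters is not a binding site, and a missing match says only that the letters are not in this window.

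The 250 bases before the start follow for the 4 higher genes with the hexamer (Utp20, Tsr1, Mybbp1a and Wdr43) and for the 2 higher genes with the largest ratios and no hexamer (Nolc1 and Rrp9). In the first 4 the hexamer lies after these stretches, in the short windows above.
Utp20, chr10:88826815-88827064, minus strand: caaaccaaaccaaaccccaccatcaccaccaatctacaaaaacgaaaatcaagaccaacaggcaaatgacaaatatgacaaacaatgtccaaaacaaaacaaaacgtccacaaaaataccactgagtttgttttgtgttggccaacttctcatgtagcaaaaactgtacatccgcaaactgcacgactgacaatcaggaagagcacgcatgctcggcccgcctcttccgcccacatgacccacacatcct
Tsr1, chr11:74897830-74898079, plus strand: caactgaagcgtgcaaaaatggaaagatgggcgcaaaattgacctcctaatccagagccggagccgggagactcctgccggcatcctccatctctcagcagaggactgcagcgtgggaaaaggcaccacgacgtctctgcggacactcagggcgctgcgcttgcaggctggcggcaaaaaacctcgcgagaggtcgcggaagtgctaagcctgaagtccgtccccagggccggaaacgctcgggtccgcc
Mybbp1a, chr11:72441077-72441326, plus strand: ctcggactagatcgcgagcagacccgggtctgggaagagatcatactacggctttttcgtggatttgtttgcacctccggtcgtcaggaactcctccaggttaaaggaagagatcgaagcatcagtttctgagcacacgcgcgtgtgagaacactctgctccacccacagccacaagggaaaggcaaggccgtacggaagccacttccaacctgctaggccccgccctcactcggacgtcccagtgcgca
Wdr43, chr17:71615965-71616214, plus strand: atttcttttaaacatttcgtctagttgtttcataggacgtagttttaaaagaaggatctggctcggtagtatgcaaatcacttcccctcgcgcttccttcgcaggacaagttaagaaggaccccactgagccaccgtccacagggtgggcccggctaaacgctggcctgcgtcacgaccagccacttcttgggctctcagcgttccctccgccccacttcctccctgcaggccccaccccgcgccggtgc
Nolc1, chr19:46075597-46075846, plus strand: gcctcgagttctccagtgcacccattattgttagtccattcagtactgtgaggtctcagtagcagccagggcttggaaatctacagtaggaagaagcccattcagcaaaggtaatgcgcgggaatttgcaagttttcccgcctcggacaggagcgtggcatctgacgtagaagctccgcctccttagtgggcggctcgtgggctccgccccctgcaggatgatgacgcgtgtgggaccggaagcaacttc
Rrp9, chr9:106477059-106477308, plus strand: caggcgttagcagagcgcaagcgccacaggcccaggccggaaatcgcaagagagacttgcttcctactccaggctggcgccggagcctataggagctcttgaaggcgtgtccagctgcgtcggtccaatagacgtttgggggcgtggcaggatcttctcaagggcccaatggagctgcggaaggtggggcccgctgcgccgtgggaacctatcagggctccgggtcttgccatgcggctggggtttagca

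The mean of the 41 genes was then set beside Mycn array by array. Mycn read 8.91, 8.96, 9.00 and 8.85 in AD cells, against 7.22, 7.11, 7.03 and 7.10 in AI cells. The groups were far apart, with a log2 ratio of 1.81 (exact two-sided permutation p = 0.0286, the smallest that 4 against 4 arrays allow). The mean of the 41 genes was 9.52, 9.58, 9.52 and 9.30 in AD cells, against 9.27, 9.31, 9.20 and 9.19 in AI cells. AD replicate 4 thus lay within the AI range for the mean of these genes, though not after quantile normalization (below). Its Mycn signal as deposited was the lowest of the AD arrays, and was above every AI array. After quantile normalization Mycn read 8.88, 8.87, 8.95 and 8.92 in AD cells, so that AD replicate 4 was no longer the lowest. The group means of the 41 genes, as deposited, were 9.48 ± 0.12 in AD cells and 9.24 ± 0.060 in AI cells (SD, n = 4 each). Their difference was 0.24 with all arrays and 0.30 without AD replicate 4. Myc, the other family member examined here, read 10.91, 10.96, 10.89 and 10.78 in AD cells and 10.94, 11.07, 10.93 and 10.95 in AI cells. Its groups overlapped, and its log2 ratio was -0.09 (adjusted p = 0.359). Mycn fell into 2 separate ranges by phenotype, with 4 arrays in each, so that no correlation was computed and the relation between Mycn and the mean of the genes was not tested.

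**Figure D4:**
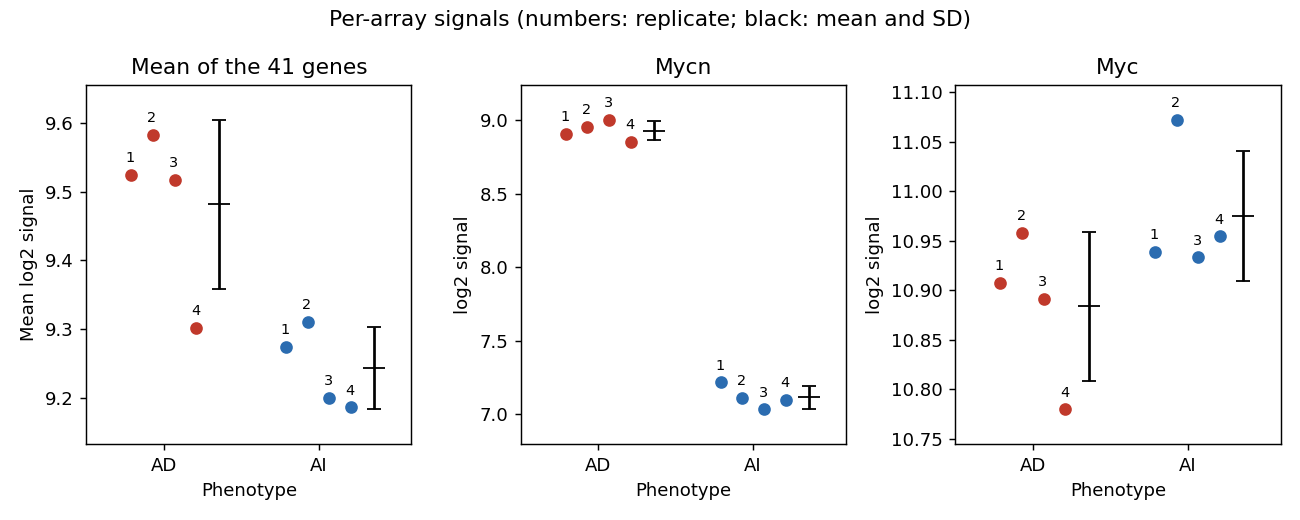
Mean log2 signal of the 41 genes (left), Mycn (middle) and Myc (right) on each AD and AI array, numbered by replicate, with mean and SD in black; the vertical scales differ. In the left panel AD replicate 4 (9.30) lies between AI replicates 1 and 2 (9.27 and 9.31). In the middle panel, of Mycn as deposited, it is the lowest AD array (8.85) and lies above every AI array.

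AD replicate 4 set much of the spread among AD cells. It was the lowest AD array for 37 of the 41 genes (90.2%), for 54.8% of the 8467 genes at least as bright and for 32.7% of all genes. It lay within or below the AI range for 24 of the 41 genes, and the other 3 AD arrays were all above every AI array for 31. Leaving out an array can only raise the second count, which was 15 with all AD arrays. Shares over all genes were not counted for these, so neither count is a result about the 41 genes. The mean of the 8467 bright genes was also lower on AD replicate 4 (8.98) than on the other AD arrays (9.04 to 9.11) and on the AI arrays (9.01 to 9.05). After quantile normalization the mean of the 41 genes was 9.51, 9.52, 9.49 and 9.36 in AD cells, against 9.27, 9.32, 9.23 and 9.19 in AI cells. AD replicate 4 was still the lowest AD array but no longer within the AI range. The median SD over the 41 genes was 0.15 in AD cells and 0.080 in AI cells, and it was 0.057 in AD cells without replicate 4. Without that array 29 genes were higher in AD cells, the 12 added being Npm1, Nop56, Heatr1, Imp4, Ddx10, Rrp12, Ltv1, Nop2, Gnl3, Wdr12, Ddx18 and Nip7, and still no gene reached 1.5-fold. In the same comparison 12% of all clusters and 26.6% of the 8467 bright genes were higher, beside 8.5% and 19% with all arrays, so that calls were more frequent over the whole table and not in these genes alone. By role these were 1 of 4 RNA polymerase I subunits, 5 of 5 nucleolar proteins, 5 of 5 snoRNP proteins, 9 of 13 small subunit factors and 9 of 14 large subunit factors. What set AD replicate 4 apart was not tested.

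The wider pathway was described with other ribosome biogenesis genes in 4 lists. Together 35 of 109 measured genes were higher in AD cells and 1 was lower, with a median log2 ratio of 0.20, and none reached 1.5-fold. Without AD replicate 4, 62 were higher and 4 reached 1.5-fold, beside 12% and 2% of all clusters. Of the 8467 bright genes 26.6% were higher and 4.64% reached 1.5-fold in that setting, so the 1.5-fold count does not stand out. Without any 1 of the other arrays 14 to 24 of the 109 were higher, beside 12.3% to 14.7% of the 8467 bright genes. The lowest count, 14 without AD replicate 3, was near the share of the bright genes there (12.6%). Of the other small subunit factors 14 of 42 were higher, led by Utp6, a processome protein, which read 8.19, 8.31, 8.14 and 8.03 in AD cells, against 7.72, 7.62, 7.50 and 7.53 in AI cells. Its groups were apart, with a log2 ratio of 0.57 (adjusted p = 0.00104). The 1 gene that was lower, Fcf1, whose yeast counterpart cuts the precursor RNA, is named because of its direction after its values were seen. Fcf1 read 7.64, 7.41, 7.48 and 7.46 in AD cells, against 7.77, 8.04, 7.93 and 7.75 in AI cells, a log2 ratio of -0.37 (adjusted p = 0.0117). Of the other large subunit factors 14 of 42 were higher, led by the nucleolar protein gene Lyar at 0.56 (adjusted p = 0.00543). Among 13 genes listed as other snoRNP factors 5 were higher, led by Tcof1 at 0.45 (adjusted p = 0.004). Tcof1 encodes the nucleolar protein treacle, which acts in ribosomal RNA transcription and could be listed with polymerase I instead. Among 12 other subunits and factors of RNA polymerase I, 2 were higher, Ttf1, a terminator of ribosomal RNA transcription, at 0.25 (adjusted p = 0.0303) and Rrn3, an initiation factor, at 0.21 (adjusted p = 0.036). That count was 5 without AD replicate 4 and 0 or 1 without any 1 of the other arrays. As the lists were drawn, with Tcof1 outside them, the polymerase I lists had the lowest medians of the ribosome biogenesis groups, 0.14 each.

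**Figure D5:**
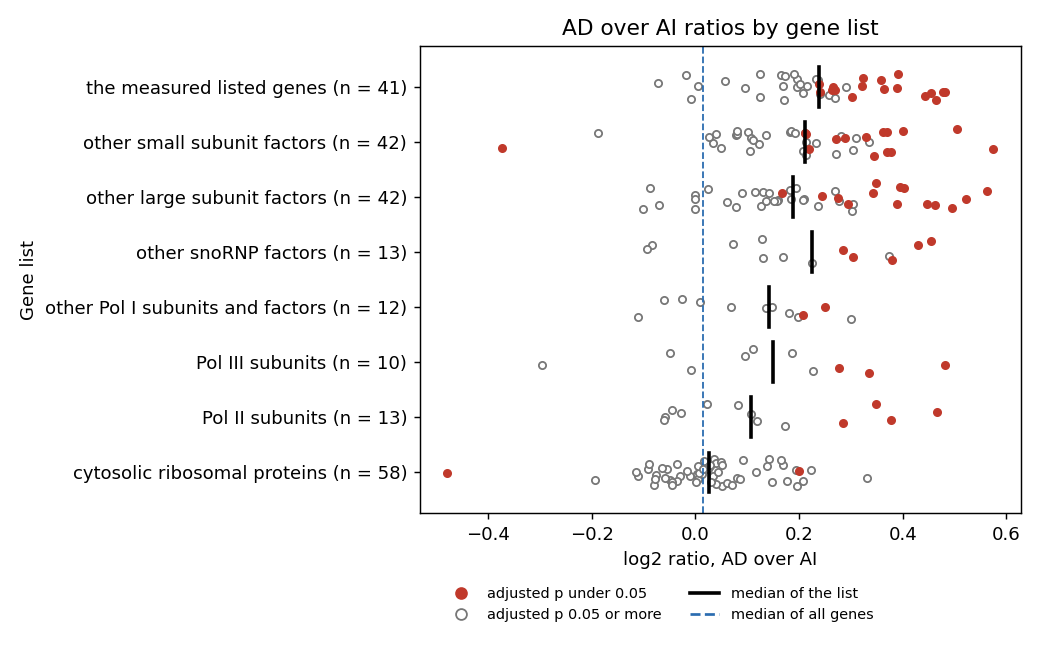
Log2 ratio of AD over AI cells for every measured gene of 8 lists (rows); filled points have an adjusted p under 0.05, black bars are list medians and the dashed line is the median of all genes (0.01). The medians run from 0.24 for the 41 genes at the top to 0.03 for the cytosolic ribosomal proteins at the bottom.

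Genes of the other RNA polymerases and of the ribosome itself were read in the same way. Of 10 RNA polymerase III subunits 3 were higher in AD cells (median log2 ratio 0.15), led by the catalytic subunit Polr3b at 0.48 (adjusted p = 0.00319). Without AD replicate 4, 5 were higher and 1 was lower, and without AI replicate 3, 2 were higher. Of 13 RNA polymerase II subunits 4 were higher (median 0.11), led by Polr2d at 0.47 (adjusted p = 0.0254). Some of the 13 are shared with polymerases I and III, among them Polr2f, which passed at 0.29 (adjusted p = 0.0125). By the same rule 8.5% of all clusters and 19% of the 8467 bright genes were higher. The cytosolic ribosomal proteins, which the assembled ribosome holds, lay near the median of all genes. Among 58 of them, 1 was higher and 1 was lower, with a median log2 ratio of 0.03. Without AD replicate 4, 6 were higher and 2 were lower, and without any 1 of the other arrays 0 or 1 was higher and 1 was lower. Their mean per array was 10.55 to 10.64 in AD cells and 10.55 to 10.60 in AI cells, so that the groups overlapped. Rpl12, the lower one, read 8.21, 8.37, 8.29 and 8.23 in AD cells, against 8.61, 8.67, 8.90 and 8.83 in AI cells, with a log2 ratio of -0.48 (adjusted p = 0.00274). Rps12, the higher one, named after its values were seen, had a log2 ratio of 0.20 (adjusted p = 0.0222). Ribosomal protein genes have many near-identical copies in the genome, so that these signals are uncertain for single genes. Differences between lists were not tested.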

How the data were processed

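Total RNA of AD and AI Neuro2a cells was hybridized to Affymetrix mouse gene ST arrays, 4 arrays per phenotype, with groups taken from the sample titles. The series design describes independent cultures, and the methods describe replicate hybridizations. Where arrays shared a culture, p-values would cover technical spread only. The deposited log2 signals were made by the authors with GCRMA in Partek 6.5, according to the submitters' processing notes, while the methods name a later Partek version and further normalizations. The deposited table was used as it stands. Arrays hold no read depth, so precision rests on the number of arrays.

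Clusters were named from GEO's platform annotation where it gave 1 symbol (21789 clusters), 1621 with several symbols and 12146 with none being tested but not named. AD and AI arrays were compared over all 35556 clusters by fitting a linear model without covariates in limma 3.58.1 (R 4.3.3; eBayes moderation, Benjamini-Hochberg adjustment), at an adjusted p under 0.05. Tables and plots were made in Python 3.11.15 (numpy 2.4.6, pandas 2.3.3, matplotlib 3.10.9, scipy 1.17.1). In simulated data on 35556 clusters the fit recovered 30% of 1.25-fold, 64% of 1.5-fold and 92% of 2-fold changes, with 4 false calls. Each fold was given to 50 clusters, far fewer than the 3024 higher and 3420 lower in the data. The adjusted p was thus a stricter rule there. Noise was drawn separately for each array, so no array was low for many genes at once. These shares need not hold for the data.

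The genes, lists and named-gene rule were chosen with earlier results of these data known. Values per array were given for the polymerase I subunits, the 10 genes with the largest ratios among those that passed, the 3 with ratios closest to 0, Mycn and Myc. From each other list the gene with the largest ratio that passed was named. Promoters of 5 higher genes with the hexamer were planned, and 4 existed. Alternatives were other scalings, filters, variance models, cluster choices, a replicate block and leaving out each array. Analysis with the clusters at the genes' own chromosomes was added after seeing the data.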

Additional observations from a re-analysis of the deposited data

Results flagged for a closer look

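In groups of 4 arrays, 1 array stood far from the other 3 (past Dixon's 95% critical value for gap over range) in 7 of 88 groups examined. Chance gives about 1 in 20 for a single group. The groups share the same 8 arrays and are not independent, so the count was not tested against that rate. In 5 of the 7 groups AD replicate 4 was the low array. Nolc1 read 8.96 there, against 9.32 to 9.38 on the other AD arrays. Utp20 read 8.42, with the others at 8.80 to 8.85. The signal of Rrp12, a late small subunit factor, was 7.63 beside 7.88 to 7.92. For Nop2, an RNA methyltransferase of the large subunit, it was 9.38 beside 9.67 to 9.72. Wdr12 stood at 8.44, with the other AD arrays at 8.74 to 8.78. A high array was seen in the other 2 groups. Wdr43 was 10.75 on AD replicate 3, beside 10.58 to 10.61 on the other AD arrays, and Myc was 11.07 on AI replicate 2, beside 10.93 to 10.95 on the other AI arrays.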

How the results depend on the processing

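The number of genes higher in AD cells was 17 as reported. It was 9 with an analysis of variance without moderation and 26 with array weights, and between 18 and 23 after quantile normalization, median centring, a filter on dim clusters, trend and robust variance, the mean of a gene's clusters or the clusters at the genes' own chromosomes. Leaving out 1 array gave 6 to 29 genes, beside 12.3% to 26.6% of the 8467 bright genes. The number lower in AD cells was 0 and the number at 1.5-fold was 0 in every setting run. At the lower of the planned fold thresholds, equal to the smallest fold simulated, 10 genes passed. Shares of all clusters and of the bright genes were not counted at that threshold, so whether these 10 stand out was not tested. The median log2 ratio was 0.20 to 0.29 with 1 array left out, and the difference of the array means 0.20 to 0.30. Median centring, which moved the median of all clusters to 0.08, gave 0.31. Ncl, Nolc1, Dkc1, Utp20, Rrp1b and Bop1 passed in every setting, and 12 genes passed in none.

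Genes with a ratio near 0 changed sign. Polr1a turned positive with array weights (0.031) and centring (0.057), and ran between -0.053 and 0.054 with 1 array left out, being positive without AD replicate 4 or AI replicate 2. Ddx56 turned positive with array weights (0.0088) and centring (0.069), and ran between -0.049 and 0.064, positive without the same arrays. Wdr74 was 0.0048 with centring and -0.11 to 0.0032 with 1 array left out, positive without AD replicate 4. Nop14 was -0.026 with quantile normalization and -0.017 to 0.028 with 1 array left out, negative without AD replicate 2 or 3 or AI replicate 3 or 4. The cause was not tested.

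With the replicate number as a block 15 genes were higher. Same-numbered arrays deviated together with correlations of -0.11, 0.08, 0.00 and -0.17, and differently numbered ones with -0.18 to 0.25. No sign of pairing by number was seen, but so few arrays cannot show whether the cultures were paired. In simulated data of this size 30% of the smallest changes simulated were called, and changes below that size were not simulated. That share need not hold for these data, since fewer clusters were changed in the simulation than were called here.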
